A study of Mus musculus with 2 samples.

Results

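The genes described here encode the neuronal cytoskeleton: 5 neuronal intermediate filament proteins, 12 tubulins of the alpha and beta families, the gamma-tubulin Tubg1, and 23 proteins that bind, stabilise or take apart microtubules or are known for their part in axon growth. They are 41 genes chosen by symbol, and all 41 were found among the 43346 mouse genes in the deposited tables. Their levels were measured by RNA-seq in Purkinje cells, the large inhibitory output neurons of the cerebellar cortex, taken by laser capture from wild-type C57Bl6 male mice aged 8 months (the source label names the strain as B6NCrl). There is 1 group with 2 replicates, pool 1 and pool 2, each a library from 50 cells with ERCC spike-in RNAs, which are synthetic transcripts of known sequence. The biosamples differ but share 1 donor identifier, so it is not established that 2 animals were used, and the spread between pools may be technical. In the labels pool 2 is linked to a Smart-seq protocol and pool 1 to none, so a difference in library preparation and the pool cannot be told apart. No conditions are contrasted, and no p-value is given. Values are TPM (a length-corrected share of the transcripts in the library) in pool 1 and pool 2, or the mean ± SD (n = 2).

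Microtubules are hollow polymers of alpha and beta tubulin dimers that carry transport along axons and dendrites. Vertebrates have several genes for each tubulin, whose products differ mostly in the acidic tail at the C-terminus, where enzymes modify the polymer. Neurofilaments are the neuron's own intermediate filaments and set axon calibre. Tau and the MAP proteins coat and stabilise microtubules, tau mostly in axons and MAP2 mostly in dendrites, while stathmins bind free tubulin dimers and end-binding proteins track growing plus ends. Purkinje cells keep a very large dendritic tree and a myelinated axon to the deep nuclei.

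Pool 1 held 23830685 expected counts and pool 2 held 27907662, of which the 41 genes took 240402 (1.009%) and 295412 (1.059%). Their summed TPM was 6130.0 and 6407. All 8 Purkinje cell markers examined were detected, with a summed TPM of 30910.0 in pool 1 and 29300.0 in pool 2, and Pcp4, a calmodulin-binding peptide, led them with 16756 and 17167 TPM. Markers of other cell types were present too: all 8 Bergmann glia and astrocyte markers were detected (summed TPM 4080.0 and 4426), 5 of 6 granule cell markers (106.2 and 135.9), 6 of 6 oligodendrocyte markers (218.5 and 212.8), 4 of 4 interneuron markers (46.2 and 64.7), 2 of 4 microglia markers (12.5 and 17.8), 4 of 4 vessel markers (90.2 and 120.2) and 4 of 4 haemoglobin genes (648.7 and 2273). Within the interneuron list Prkcd had 9.83 and 38.65 TPM, while Nxph1 (16.4 and 11.2) and Kit (11.6 and 6.04) were lower in pool 2. None of 3 oligodendrocyte precursor and 3 ependyma markers was detected, and the ependyma marker Tmem212 had 0 counts in both pools. The share of these cells in the levels below was not tested, and in such pools fewer cells of a type and less RNA per cell cannot be told apart.

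Of the 41 genes, 35 were detected, defined as 1 TPM or more in each pool, beside 51.7% of 21474 protein-coding genes by the same rule. The undetected members were Prph, Tuba1c, Dcx, Dpysl3, Dpysl4 and Dpysl5. Levels of the detected members ranged from Map1s at 1.73 and 1.62 TPM to Stmn3 at 1947 and 2127 TPM. Stmn3 exceeded 99.6% of the 11092 protein-coding genes detected. Many neighbours in the middle of the order overlapped between the pools.

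**Figure D1:**
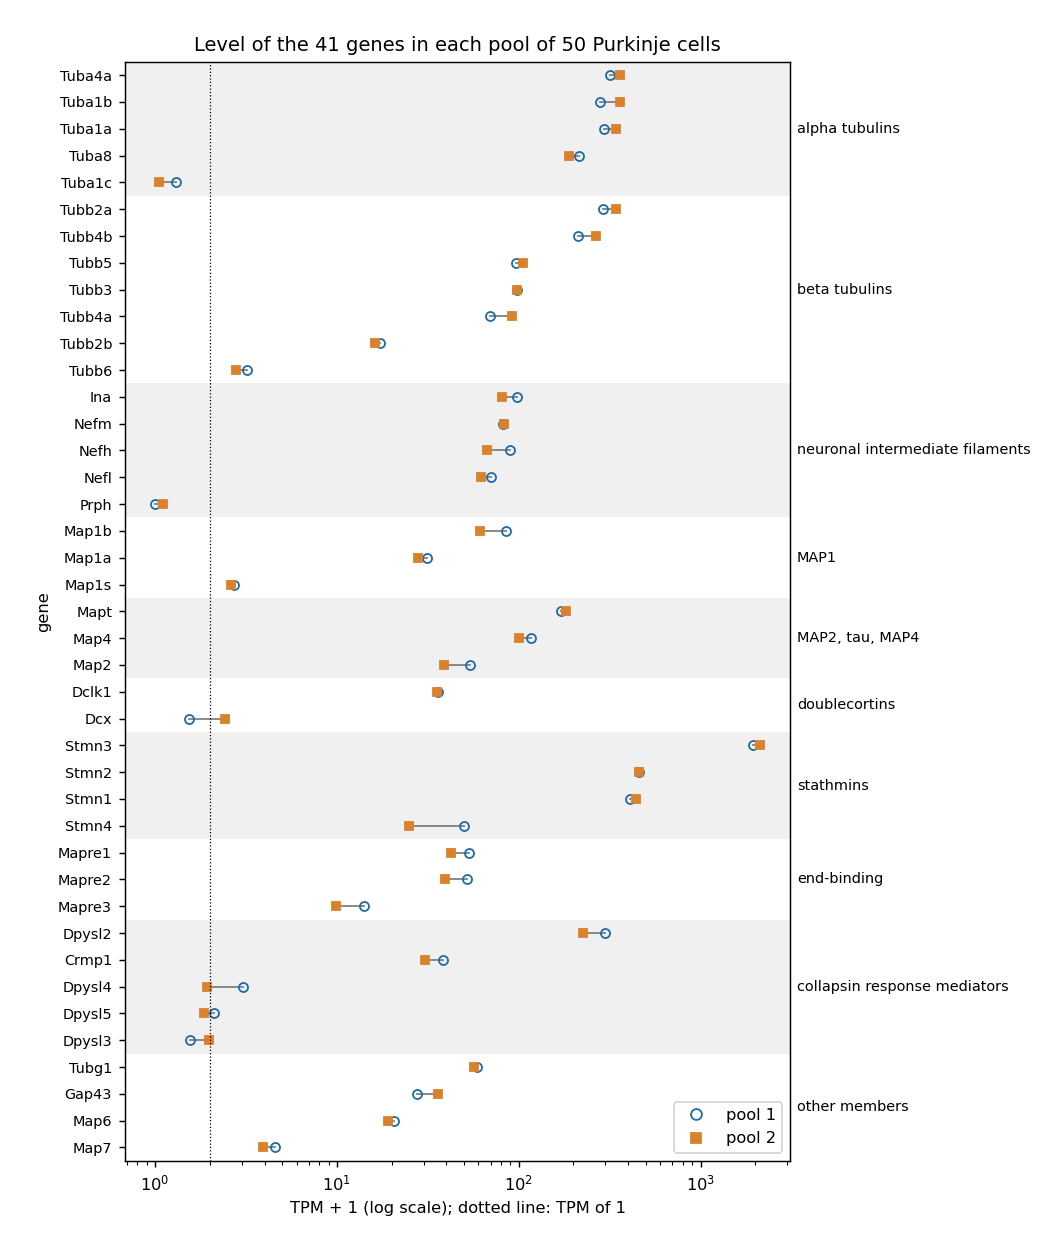
TPM + 1 on a log axis for each of the 41 genes in pool 1 (open circles) and pool 2 (filled squares), grouped by family and ordered by mean level. The pools lie close together for most genes, with Stmn3 highest at 1947 and 2127 TPM and a visible gap for Stmn4 (48.9 and 23.9 TPM).

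The 3 neurofilament subunits and alpha-internexin were present at similar levels, and the fifth filament gene was not detected. Nefl, the light subunit that starts filament assembly (chromosome 14, 68083863 to 68089095, mouse build GRCm38), had 69.3 and 61.1 TPM. Nefm, the medium subunit, had 80.5 and 82.3 TPM. Nefh, the heavy subunit whose tail is heavily phosphorylated in axons (chromosome 11, 4938754 to 4948064), had 88.9 and 66.2 TPM. Ina, alpha-internexin (chromosome 19, 47014698 to 47025327), had 97.3 and 80.0 TPM. Every gene of these 4 was between 61.1 and 97.3 TPM in both pools, and the ranges of Nefm, Nefh and Ina overlapped. In shares of the family's summed TPM, Ina took 28.3 ± 0.942%, Nefm 26.2 ± 3.15%, Nefh 24.7 ± 2.55% and Nefl 20.9 ± 0.318% (SD, n = 2). Ina led in pool 1 (29.0%), and Nefm led in pool 2 (28.4%). The gene spans of Nefl and Nefm overlap on opposite strands, and the sources used here do not give the strand setting of the quantification. The second Nefm transcript took only 0.175% of the Nefm level.

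Prph, peripherin, a filament protein best known from peripheral neurons, had 0 expected counts in pool 1 and 4 in pool 2. Zero counts in pool 1 allow a TPM of up to 0.0880 when the limit is set at 3 counts, and the 95% exact Poisson interval there reached 0.108. The value in pool 2 was 0.10 TPM (95% exact Poisson interval 0.0259 to 0.244). Such intervals and limits reflect counting error alone, because the files hold no molecular identifiers.

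Among the alpha tubulins, 4 genes shared the family and Tuba1c was close to 0. Tuba4a (chromosome 1, 75214228 to 75219865) had 317 and 359.8 TPM, Tuba1a (chromosome 15, 98949837 to 98953703) had 295 and 342 TPM, and Tuba1b (chromosome 15, 98931425 to 98934565) had 278 and 359 TPM. Their ranges overlapped, so the order of these 3 genes was within the spread of the pools. Tuba8, an alpha tubulin with a distinct sequence (chromosome 6, 121210696 to 121226854), had 214 and 189 TPM, below the other 3 in each pool. Tuba1c had 0.31 TPM from 11.6 expected counts in pool 1 and 0.05 TPM from 2.46 in pool 2. The shares were 28.8 ± 0.0209% for Tuba4a, 27.0 ± 0.486% for Tuba1a, 27.0 ± 2.53% for Tuba1b and 17.3 ± 3.02% for Tuba8 (SD, n = 2).

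Some alpha tubulins are modified at their last residue, and Tuba4a and Tuba8 end in different codons. The last 60 coding bases of these genes are shown for that reason, with the codon before the stop in capitals; they were read from GENCODE release M21 transcripts, 5′ to 3′ on the coding strand of GRCm38.
Tuba4a, chr1:75215625-75215684, minus strand: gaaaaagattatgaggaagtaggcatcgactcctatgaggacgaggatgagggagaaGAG
Tuba8, chr6:121226017-121226076, plus strand: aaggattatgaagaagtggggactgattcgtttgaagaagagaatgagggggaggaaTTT
GAG encodes glutamate and TTT phenylalanine, and RNA levels do not show whether either residue is modified.

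How reads are divided bears on Tuba1a, Tuba1b and Tuba1c. The coding sequences of Tuba1a and Tuba1b were 98.3% identical, and that of Tuba1c was 97.1% identical to Tuba1a and 97.9% to Tuba1b. Of the 50-base words, 72.9% in Tuba1a, 73.8% in Tuba1b and 61.0% in Tuba1c also occur in transcripts of other genes. The split between these genes, and with it the low Tuba1c value, rests on the authors' estimation. For Tuba4a only 1.52% of the words were shared and for Tuba8 0.18%. The Tuba4a level is less certain for another reason. Its leading transcript, with 51.8 ± 1.03% of the gene, is annotated with an incomplete start, and the next, with 36.1 ± 1.36%, has only 225 coding bases. Counting only transcripts whose coding sequence is at least 50% of the gene's longest, Tuba4a had 174.2 and 201.4 TPM and Tuba1b led the family with 31.0%. In that count Tuba8 had 214.2 and 189.1 TPM, above Tuba4a in pool 1 and below it in pool 2.

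The beta tubulins were led by Tubb2a and Tubb4b. Tubb2a (chromosome 13, 34074274 to 34078007) had 289 and 341 TPM, or 37.2 ± 0.126% of the family, and Tubb4b (chromosome 2, 25222160 to 25224702) had 210.0 and 265 TPM, or 28.0 ± 1.38%. Tubb5, a broadly expressed beta tubulin, had 95.3 and 104 TPM. Tubb3, the neuronal class III gene (chromosome 8, 123411424 to 123422015), had 97.0 and 96.8 TPM. Tubb4a, a brain isotype that is also high in oligodendrocytes, had 68.5 and 91.0 TPM. Tubb5, Tubb3 and Tubb4a were each lower than Tubb4b in both pools, and Tubb5 and Tubb3 overlapped. Tubb2b, the neighbour and near copy of Tubb2a that is prominent in migrating neurons, had 16.2 and 15.2 TPM, and Tubb2a exceeded it 17.9-fold in pool 1 and 22.5-fold in pool 2. Tubb6 had 2.19 and 1.80 TPM. Summed over the genes, alpha tubulin TPM exceeded beta tubulin TPM 1.42-fold in pool 1 and 1.37-fold in pool 2.

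The beta tails are printed beside that of Tubb2a: capitals mark bases not matched in Tubb2a in a pairwise alignment of the parts shown. They are the last 60 coding bases, from the same source as the alpha tails.
Tubb2a, chr13:34074471-34074530, minus strand: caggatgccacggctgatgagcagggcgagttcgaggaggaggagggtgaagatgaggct
Tubb2b, chr13:34127474-34127533, minus strand: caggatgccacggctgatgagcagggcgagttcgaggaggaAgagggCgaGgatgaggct
Tubb4b, chr2:25222311-25222370, minus strand: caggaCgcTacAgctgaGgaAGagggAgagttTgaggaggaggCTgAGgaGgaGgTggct
Tubb3, chr8:123421620-123421679, plus strand: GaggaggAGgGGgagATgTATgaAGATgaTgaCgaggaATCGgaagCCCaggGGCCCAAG
Tubb2b had 3 such bases, Tubb4b 15 and Tubb3 31. The Tubb3 capitals also depend on where its part starts, because its coding sequence is longer (1350 bases, beside 1335 in Tubb2a). Over the whole coding sequence, Tubb2a was 96.5% identical to Tubb2b, 83.6% to Tubb4b and 83.6% to Tubb3. Of the 50-base words of Tubb2a 49.6% were shared with other genes, beside 50.9% for Tubb4b, whose matches include processed pseudogenes, 39.3% for Tubb2b and 0% for Tubb3. Tubg1, the gamma-tubulin that nucleates new microtubules, had 58.1 and 55.9 TPM, and the alpha tubulin sum exceeded it 19.0-fold and 22.4-fold.

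**Figure D2:**
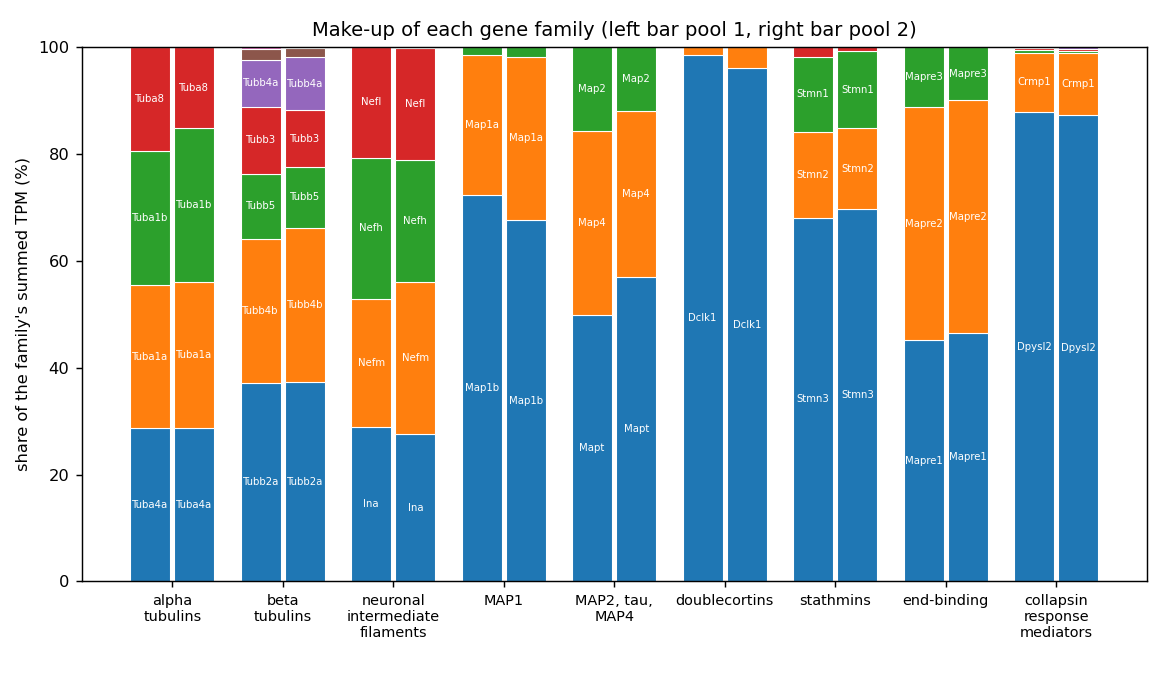
Make-up of each family's summed TPM by gene, in percent, with pool 1 on the left and pool 2 on the right of each pair of stacked bars; segments of at least 5% carry the gene's name. The alpha tubulins and the intermediate filaments are divided among 4 genes each, while Dclk1 (97.3%) and Dpysl2 (87.7%) fill most of their families.

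Large microtubule-binding proteins of the MAP1 family were led by Map1b. Map1b, known for its role in growing axons (chromosome 13, 99421446 to 99516540), had 84.2 and 59.9 TPM, or 70.1 ± 3.29% of the family. Map1a, which is known to be prominent in adult dendrites, had 30.4 and 26.9 TPM, and Map1s had 1.73 and 1.62 TPM. Map1b was above Map1a in each pool. Of the Map1a level, 63.7% in pool 1 and 55.6% in pool 2 came from transcripts annotated as protein coding, and with such transcripts alone Map1b took 79.2%.

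In the family that shares the tau-type repeats, Mapt, which encodes tau (chromosome 11, 104231390 to 104332090), had 169 and 182 TPM. Map4, the member found in most tissues (chromosome 9, 109931460 to 110083955), had 117 and 99.5 TPM. Map2, the dendritic member (chromosome 1, 66175273 to 66442583), had 53.0 and 37.9 TPM. The 3 genes kept this order in both pools without overlap, with shares of 53.5 ± 4.93%, 32.8 ± 2.27% and 13.8 ± 2.66% (SD, n = 2). For Map4, a transcript with only 297 coding bases took 60.6 ± 3.58% of the level, so less than the gene's total came from its long coding forms (48.8 and 36.7 TPM). Expected counts, which grow with length, put Map4 first with 45.3% and Mapt at 38.4%.

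Tau and MAP2 bind microtubules through repeats, and in Map2 an exon of 93 bases adds a repeat. It is shown because the files list forms with and without it, on GRCm38, plus strand.
Map2, chr1:66431527-66431619: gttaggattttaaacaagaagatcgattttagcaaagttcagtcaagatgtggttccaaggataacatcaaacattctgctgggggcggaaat
In Map2, transcripts with the exon took 8.99% of the gene in pool 1 and 5.86% in pool 2, and short transcripts without it took 34.7% and 40.2%.

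Tau can carry inserts near its N-terminus: the form with 2 inserts took 35.8% and 37.1%, and forms without an insert took 51.9% and 49.4%. No transcript was classed as a form with 1 insert, so such a form had no share of its own. Forms with the large 759-base exon, typical of peripheral tau, took 0.809% and 0.358%. The Map2 form with the 3741-base exon, which makes the high-molecular-weight dendritic protein, took 9.61% and 7.05% of the gene. Incomplete or noncoding transcripts took 46.7% and 46.9% of Map2 over 17 entries, so its division into complete forms covers only part of its level. Deposited interval bounds, of a level not stated, ran from 0.513 to 13.8 TPM in pool 1 for the transcript with the highest mean share. Map6, the protein that protects microtubules from cold, had 19.7 and 18.2 TPM, of which its longest coding form took 9.79% and 10.2%. Map7, which recruits kinesin-1, had 3.56 and 2.91 TPM.

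**Figure D3:**
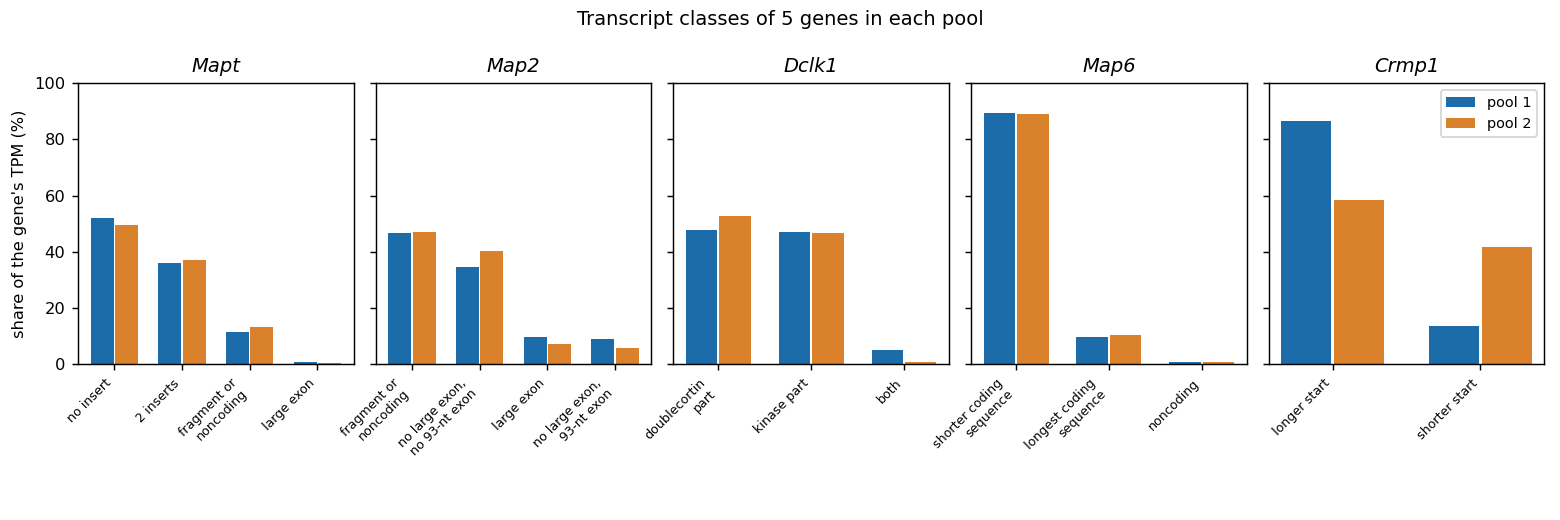
Share of each transcript class in the gene's TPM, in percent, for Mapt, Map2, Dclk1, Map6 and Crmp1, with pool 1 in blue and pool 2 in orange. Crmp1 shows the widest gap, with the longer start at 86.5% and 58.3%; in Dclk1 the form with both parts took 5.11% and 0.664%.

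Doublecortin, the microtubule binder of newly made and migrating neurons, was near the detection level and its relative Dclk1 was not. Dcx had 0.54 TPM from 60 expected counts in pool 1 and 1.41 TPM from 141 in pool 2, and transcripts annotated as protein coding took 45.5% and 29.1% of it. Dclk1, a doublecortin joined to a kinase (chromosome 3, 55242364 to 55539068), had 34.8 and 34.6 TPM, 97.3 ± 1.69% of the pair. Its transcripts were split almost evenly between short forms. The form with the doublecortin part alone took 47.8% and 52.7%, the form with the kinase part alone took 47.1% and 46.6%, and the form that holds both parts took 5.11% and 0.664%. The deposited bounds of this last form, 0.914 to 2.53 TPM in pool 1 and 0.0693 to 0.466 TPM in pool 2, did not overlap. Such bounds describe each library alone and do not measure the spread between pools.

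Stathmins, which bind tubulin dimers and promote disassembly, were the most abundant family. Stmn3 (chromosome 2, 181306459 to 181314500) had 1947 and 2127 TPM, 68.9 ± 1.15% of the family, and exceeded Stmn2 4.27-fold and 4.63-fold. Stmn2, the axonal growth and repair stathmin also called SCG10 (chromosome 3, 8509360 to 8561606), had 456 and 459 TPM. Stmn1, the founding member, had 406 and 439 TPM, and 36.5% of its 50-base words are shared with other genes. Stmn2 was above Stmn1 in each pool. Stmn4 had 48.9 and 23.9 TPM, the lowest of the family in each pool.

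The end-binding proteins Mapre1 and Mapre2 could not be ordered. Mapre1, also called EB1, had 52.5 and 41.3 TPM, and Mapre2, EB2, had 50.8 and 38.6 TPM. Mapre3, the neuronal EB3, was lower with 13.0 and 8.83 TPM. Most of the Mapre1 level, 77.5% and 71.8%, was assigned to a short noncoding transcript. In transcripts annotated as protein coding, Mapre1 had 11.8 and 11.7 TPM and Mapre2 47.0 and 35.5 TPM, and Mapre2 held 72.7% of the family in that count. For Mapre3 the leading transcript, with 59.2 ± 9.90% of the gene, is not in release M21 and was left out of the protein-coding values, which were 4.95 and 2.37 TPM.

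Collapsin response mediators couple guidance signals to tubulin assembly. Dpysl2, also called CRMP2 (chromosome 14, 66802864 to 66868688), had 299 and 226 TPM and 87.7 ± 0.389% of the family. Crmp1 had 37.2 and 29.7 TPM, and its form with the longer start took 86.5% in pool 1 and 58.3% in pool 2. The developmental members were all under the detection rule: Dpysl3 had 0.55 and 0.99 TPM, Dpysl4 2.03 and 0.92, and Dpysl5 1.12 and 0.87. By the authors' posterior mean TPM each of them passed it: Dpysl3 had 1.05 and 1.41, Dpysl4 2.24 and 1.18, and Dpysl5 1.52 and 1.11. Gap43, a growth cone protein kept in some adult axon terminals (chromosome 16, 42248442 to 42340651), had 26.5 and 34.9 TPM. The summed granule cell markers also stood higher in pool 2 (106.2 and 135.9 TPM), and their part in the Gap43 values was not tested.

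The pools were compared gene by gene as log2((TPM in pool 2 + 1) / (TPM in pool 1 + 1)), which understates ratios of low genes, for the 39 members whose mean TPM reached 0.5. The members' median was -0.09, with 15 (38.5%) higher and 24 (61.5%) lower in pool 2. Over 15079 genes the median was -0.07, with 42.2% higher and 57.5% lower, close to the split of the members. Past 1.5-fold there was 1 member higher in pool 2, Dcx at 0.65, beside 4.83% of all genes, and there were 2 members lower, Stmn4 at -1.002 and Dpysl4 at -0.66, beside 7.43%. Dcx and Dpysl4 rest on 141 counts or fewer in each pool. In Dcx, a transcript annotated as a retained intron went from 0.23 TPM in pool 1 to 0.86 in pool 2. Dcx transcripts annotated as protein coding went from 0.25 to 0.41 TPM. The Dpysl4 ratio also depends on how its reads were divided among transcripts. Its expected counts were 76 and 74, and an incomplete transcript took 51.93% of it in pool 1 and 0% in pool 2. Its transcripts with a long coding sequence went the other way, from 0.01 to 0.79 TPM. With the total of the spike-ins as the scale, 37 of the 39 were higher in pool 2 and all genes had a median of 0.49. With TMM or DESeq2 scaling 18 members were higher and 21 lower, with medians of -0.005 and -0.006, and the median of all genes was 0.01.

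Of the 12 tubulins measured (Tuba1c was too low, and Tubg1 is included), 7 were higher in pool 2, with a median of 0.15, 12 of 12 were higher on the spike-in scale, and 9 of 12 with TMM or DESeq2 scaling. Of the other 27 members 8 were higher, with a median of -0.18, 25 were higher on the spike-in scale, and 9 with TMM or DESeq2 scaling. On the TPM scale 42.2% of all genes were higher. That share was not counted on the other scales, where the median of all genes was 0.49 (spike-ins) and 0.01 (TMM or DESeq2). The difference between the groups of members was not tested. Transcript length moved with this ratio over all genes: the median was 0.01 for effective lengths from 1000 to 2000 bases and -0.23 for 4000 bases or more. Across the 39 members, Pearson's r between the ratio and log2 effective length was -0.22 and Spearman's rho was -0.35. Both describe genes that share the same 2 libraries. After subtracting the median of all genes in the same length bin, the members' median was 0.01 with 20 higher and 19 lower, the tubulins' median was 0.19 with 7 of 12 higher, and that of the others was -0.06 with 13 of 27 higher. Haemoglobin genes differed more between the pools than any member (summed TPM 648.7 and 2273), and their part in these ratios was not tested.

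**Figure D4:**
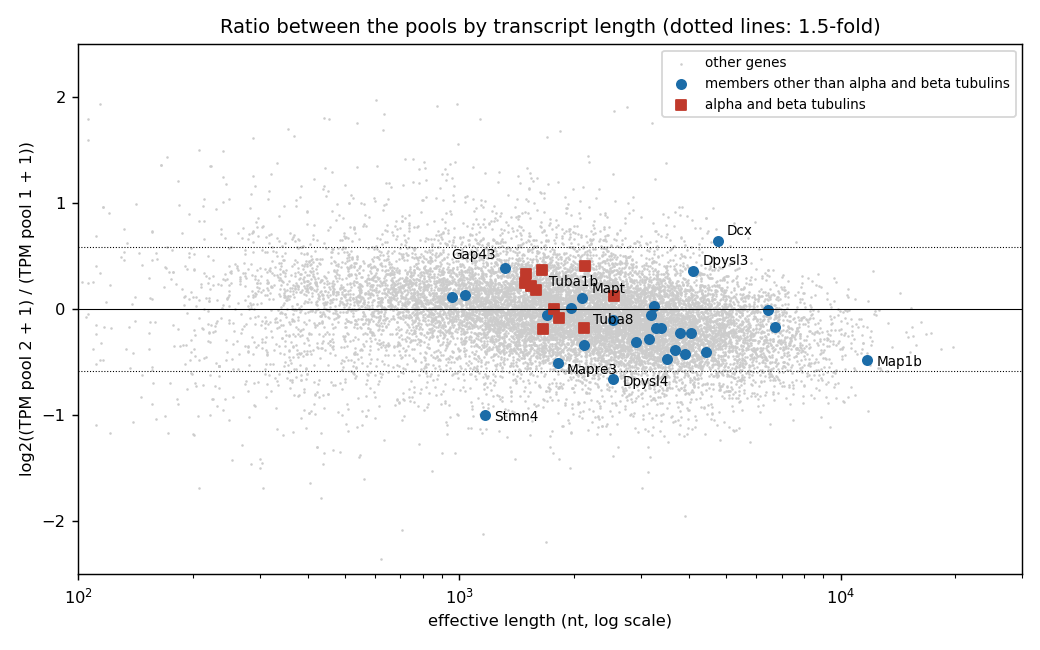
Log2 ratio of pool 2 over pool 1 against effective length in bases (log axis) for tubulins of the alpha and beta families (red squares), the other members (blue circles) and all other genes whose mean TPM reached 0.5 (grey; 316 genes lie outside the axes). Dotted lines mark 1.5-fold; Stmn4 (-1.002) lies farthest from 0 among the members, and the long Map1b lies at -0.48.

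The transcript listed first within a gene was the same in the pools for 20 of the 22 detected members with several transcripts, beside 87.5% of 8634 such genes. Map1a and Map2 were the exceptions. In Map2 the transcript that led pool 1 took 24.81% there and 11.95% in pool 2, and the one that led pool 2 took 17.87% there and 0% in pool 1, where its deposited bounds ran from 0.0643 to 8.03 TPM. In the 22 genes the leading transcript took a median of 78.4% of the level.

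Genes that build, cut and modify microtubules were read from 9 lists holding 76 genes. Tubulin folding cofactors were all detected (6 of 6), led by Tbcb (188 and 218 TPM), Tbca (181 and 169) and Arl2 (163 and 183). The gamma-tubulin ring complex was detected in full (8 of 8), with Mzt2 at 78.3 and 89.0 TPM, Mzt1 at 58.2 and 58.9 and Tubgcp4 at 11.7 and 10.8. Severing enzymes were low: 5 of 6 were detected, led by Katna1 (13.2 and 13.7 TPM) and Katnal1 (14.9 and 9.57). Among 9 minus-end and plus-end regulators 7 were detected, and Ckap5, a microtubule polymerase, had 125 and 91.9 TPM, Clip1 53.6 and 44.8, and Clasp2 32.7 and 24.6.

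The list of other microtubule-associated genes had 12 of 14 detected, with Map1lc3b, which also marks autophagosomes, at 300.0 and 281 TPM, Tppp3 at 127 and 136 and Map7d2 at 138 and 114, and Map7d3 had 0 counts. Other tubulin genes were low, with 3 of 7 detected: Tubg2 had 8.91 and 12.7 TPM, Tubd1 5.03 and 5.09 and Tube1 3.49 and 3.89, while Tuba3a, Tuba3b, Tubal3 and Tubb1 had 0 counts in both pools. For tubulin acetylation and detyrosination, 5 of 7 genes were detected. Sirt2, a deacetylase, had 46.9 and 51.4 TPM, Svbp, the partner of the detyrosinating vasohibins, had 40.5 and 48.3 TPM, and Atat1, the alpha tubulin acetyltransferase, had 21.8 and 21.9 TPM. Both vasohibins, Vash1 and Vash2, were below the detection level. Kinases and phosphatases that act on tau and MAPs were detected for 9 of 12 genes, with Cdk5 at 86.7 and 97.3 TPM, Gsk3b at 101 and 76.1 and Ppp2ca at 71.2 and 57.9. Among other intermediate filaments and linkers 5 of 7 were detected: Vim, a filament of glia and vessels, had 200.3 and 178 TPM, the linker Dst 45.5 and 32.5, and Plec 10.5 and 9.89.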

How the data were processed

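Gene and transcript tables of 2 RNA-seq libraries were used. The deposited expected counts are the authors' estimated reads per gene or transcript, partly fractional and not normalized. The deposited TPM values were scaled by the authors to 1 total per library with the spike-ins included, and the deposited percent is each transcript's part of its gene. The files use mm10 and GENCODE M4, per the labels and file notes; the aligner, quantifier and strand setting are not given in the sources used here. Symbols, coordinates, transcript types and sequences came from GENCODE M21 on the same assembly (6 of 156 member transcripts had no entry). Numeric entries (26248) were left out. The posterior mean TPM and its interval bounds were also deposited by the authors.

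Shares, log2 ratios (pseudocount 1) and counts at thresholds were computed in Python 3.11.15 with numpy 2.4.6, pandas 2.3.3 and scipy 1.17.1. Alternative scales used rounded counts with TMM factors of edgeR 4.0.16 and size factors of DESeq2 1.42.0 (R 4.3.3). The arithmetic of the ratios was checked on simulated counts, which says nothing of the pools themselves. All 41 members may be named, and of each other list the 3 highest and any at 0. The members and lists were chosen with earlier results of these data known. A few genes and sequences are not reported here.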

Additional observations from a re-analysis of the deposited data

How the results depend on the processing

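No paired analysis was possible because there is 1 group. Detected members numbered from 32 to 39 over all settings, 38 by the posterior mean TPM, and 36 and 37 in single pools. Sharing out expected counts in place of TPM gave Tuba4a 27.1%, Tubb2a 32.3%, Ina 26.3% (Nefh then led with 28.4%), Map1b 80.8%, Mapt 38.4%, Stmn3 61.1%, Mapre1 35.1% (Mapre2 led with 58.0%) and Dpysl2 91.5%; the posterior mean TPM gave Tuba4a 28.9%. Protein-coding transcripts alone gave Tuba4a 27.2% (Tuba1b then led with 27.7%), Map1b 79.2%, Dclk1 99.1% and Mapre1 21.03%. Long coding transcripts, an alternative chosen after seeing the data, gave Tuba4a 18.4%, Map1b 79.2%, Mapt 71.2%, Mapre1 21.03% and Dpysl2 88.1%. That cutoff also left out complete forms of Mapt (one with 1116 coding bases) and Map2, and it left Map2 with 5.09 and 2.67 TPM. The 71.2% is therefore not a share among all complete coding forms. The leading transcript took a median of 81.3% to 84.9% in single pools. The members' median log2 ratio was 0.54 on the spike-in scale, where 18 members passed 1.5-fold higher (39.7% of all genes) and 0 lower (1.56%). A pseudocount of 0.1 gave 2 higher (8.67% of all genes), and one of 5 gave 0 higher (1.18%) and 1 lower (2.15%). A mean TPM of at least 5 gave 0 higher (2.56% of all genes) and 1 lower (6.39%). The length adjustment gave 2 higher (5.19%) and 1 lower (5.58%). Of the members' ratios, 24 moved by over 0.1 with the length adjustment and 39 on the spike-in scale. Dcx, Stmn4 and Dpysl4, past 1.5-fold in the report, changed sign under none of the settings tried for the ratios. Long coding transcripts were not among those settings. On the spike-in scale the members higher in pool 2 went from 15 to 37, and values near 0 passed 1.5-fold with the opposite sign: Dclk1 from -0.008 to 0.65, Tubb3 from -0.004 to 0.67 and Tubg1 from -0.05 to 0.61. The causes were not tested. Counts were fewest for Prph and Tuba1c; the other 4 undetected members had 58 or more in each pool and missed the TPM rule.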

Other observations

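Among the pseudogenes that share sequence with Tubb4b, Tubb4b-ps1 was assigned 1.53 expected counts in pool 1 and 3.52 in pool 2, and Tubb4b-ps2 4.20 and 2.09. These counts stand beside 6243 and 9992 for Tubb4b itself. No counts are given here for other entries that share sequence with the tubulins, such as Tubb2a-ps2 with Tubb2a and Tubb2b.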
